A study of Saccharomyces cerevisiae S288C with 18 samples.

Results

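The libraries described here are the 6 NextSeq libraries of the series, grouped by replicate number. Replicate 1, replicate 2 and replicate 3 each hold 1 library of cells treated with LF and 1 library of its untreated control, so that each replicate number has 2 libraries, and the 6 are part of 18 libraries in all. They were chosen by their labels, with no measured value used. The study places these replicates on different days, and a replicate number is called a replicate day here. What was done anew on each day (the culture, the harvest, the RNA extraction) cannot be told apart.

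All 6 cultures were Saccharomyces cerevisiae S288C, the laboratory strain behind the reference genome, grown in RPMI-1640, a defined mammalian cell culture medium, at 30 °C. The LF cultures received 2 µg/mL bovine lactoferrin, an iron-binding milk protein with antifungal activity, for 50 min. The control cultures for LF were grown for 50 min with no drug. The remaining 12 libraries of the series, sequenced on a HiSeq2000, are 3 each of AMB, the control for AMB, AMB-LF and the control for AMB-LF (AMB is amphotericin B), and of these only the untreated controls are compared with the replicate days below. The NextSeq libraries were made from polyadenylated RNA and read in 1 lane, lane 3, with 75 bp single reads in the study's methods.

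A yeast culture sets much of its mRNA by how fast it grows and by which nutrients run short. Fast growth goes with ribosomal protein and ribosome assembly genes, while slowing growth, stress and glucose depletion go with the Msn2 and Msn4 stress programme, storage carbohydrates and respiration. Separate regulons answer to amino acids (Gcn4), preferred nitrogen (Gln3 and Gat1), sulfur (Met4), phosphate (Pho4), iron (Aft1), zinc (Zap1), unfolded cytosolic protein (Hsf1) and proteasome load (Rpn4). The same programmes can shift between cultures that are meant to be alike.

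The count totals lay between 23925944 and 30172836 per NextSeq library, and 5445 genes were tested, those that reached 7 CPM or more in 3 or more libraries. CPM here are counts per 1 M, scaled by edgeR's TMM factors. The summed level of 6 genes that mark mating type a was 1950 to 2710 CPM, against 78.8 to 92.1 CPM for 4 genes that mark mating type alpha, with MF(ALPHA)1, which encodes the alpha pheromone, at 0.141 to 0.418 CPM. S288C itself is known as mating type alpha, and the labels give no mating type. A list of 10 mitochondrially encoded genes had 0 counts in all 6 libraries. Between the LF and control counts of a day, the mean chi-square per gene was 25.7 in replicate 1, 54.1 in replicate 2 and 14.7 in replicate 3. Sampling noise alone has a mean of 1. The medians were 2.28, 3.77 and 2.24. Counts were scaled to the totals of the tested genes without TMM factors, so differences in composition enter these values. At this scaling, the libraries of a day differed by more than sampling noise.

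The first question was how large the day-to-day differences were beside those of LF. Between the LF and control libraries of 1 day, the median absolute difference over genes was 0.0692 in replicate 1, 0.074 in replicate 2 and 0.062 in replicate 3 on the log2 CPM scale, and 8, 6 and 3 genes differed over 2-fold. Between days, all 12 pairs of libraries were farther apart than these. The 4 pairs that join replicates 1 and 2 differed by 0.101 to 0.114, and those that join replicate 3 with replicate 1 or 2 by 0.17 to 0.218, with 89 to 204 genes over 2-fold. Replicate 3 therefore stood farthest from the other days, in its LF and its control library alike.

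**Figure D1:**
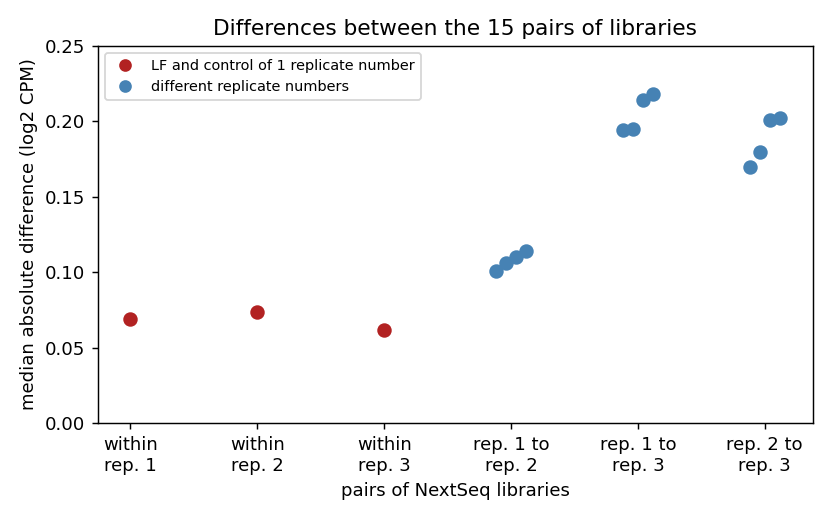
Median absolute difference over the 5445 genes tested (vertical axis, log2 CPM) for each of the 15 pairs of NextSeq libraries, by the replicate numbers they join. The 3 pairs of LF and control from 1 replicate number lie between 0.062 and 0.074, and all 12 pairs of different replicate numbers lie above them, at 0.101 to 0.218.

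An overall test of the replicate day (edgeR quasi-likelihood F test with the treatment in the model, Benjamini-Hochberg adjusted) called 3353 of 5445 genes at an adjusted p under 0.05, which is 61.6% of them. Without the replicate day in the model, the same genes gave 0 calls for LF against its control (0%). This edgeR quasi-likelihood test had 8 genes at an unadjusted p under 0.05. It holds the spread between days in its error and so has less power than a test with the day in the model. The common biological coefficient of variation was 0.1788 without the day and 0.0558 with it. With the replicate day as a block, LF again had 0 calls, with 418 genes at an unadjusted p under 0.05, and edgeR's likelihood ratio test and DESeq2 without the block also gave 0 calls, with 1 and 20 such genes. Over genes, a median of 86.7% of the variation among the 6 libraries lay between days, 2.8% between LF and control, and 6.66% was left within days. As there are more days than treatments, noise alone would also put a larger share between days than between LF and control. Day differences were mostly moderate: the range of the 3 day means had a median of 0.39 on the log2 scale over the called genes, and 221 genes had a range over 1. By comparison, 3 genes had a mean difference of LF minus control beyond 1, all of them zinc genes (ZPS1, ZRT1 and ZAP1). Each day is 2 libraries of different treatment, so the p-values measure days against the spread of such pairs and speak of these 3 days only.

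Each called gene was placed with the day that stood apart from the other two, as high or low. Replicate 3 took most of them, with 1070 genes high (31.9% of the called) and 1205 low (35.9%). Replicate 1 was the day apart for 357 genes high and 276 low, and replicate 2 for 174 high and 271 low. For replicate 3, both libraries of the day lay outside the other 4 libraries for 1055 of the 1070 and 1198 of the 1205. The choice by the called test favours such genes (61.6% of all genes were called), and their share over all genes tested was not counted. These counts are therefore no separate result. Replicate 2 lay between the other days for 1651 called genes, replicate 1 for 1276 and replicate 3 for 426.

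Each day was also tested against the mean of the other days. Replicate 3 had 1489 genes higher (27.3% of those tested) and 1638 lower (30.1%), replicate 1 had 1257 higher (23.1%) and 1035 lower (19.0%), and replicate 2 had 917 higher (16.8%) and 931 lower (17.1%). These percentages, and medians over all genes of 0.019 for replicate 1, -0.0017 for replicate 2 and -0.012 for replicate 3, are the background for the gene lists below. The 3 log2 differences of a gene sum to 0, so a gene far off on 1 day is also counted on another. Scaling to library size alone changed the balance of directions: 54.8% of replicate 1's calls were in the higher direction with TMM factors and 36% with library size only, against 47.6% and 60.3% for replicate 3 and 49.6% and 48.4% for replicate 2.

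The counts also depended on single libraries, since each day has 2. In what follows, LF 3 and control 3 stand for the libraries of replicate 3, and likewise for the other days. Without LF 3 or control 3 the overall test called 2012 or 2089 genes. For replicate 3 the calls then were 857 or 896 higher and 905 or 978 lower, for replicate 1 they were 737 or 691 higher, and for replicate 2 they were 555 or 593 higher and 526 or 575 lower. Without control 1, replicate 1 had 573 genes higher, and without LF 2, replicate 2 had 429 higher and 422 lower. Where leaving out 1 library moved a list count of 5 or more by over 1.5 times, the count without it is given in parentheses after the count or the list's median. List counts under 5 rest on few genes, and many of them also moved.

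**Figure D2:**
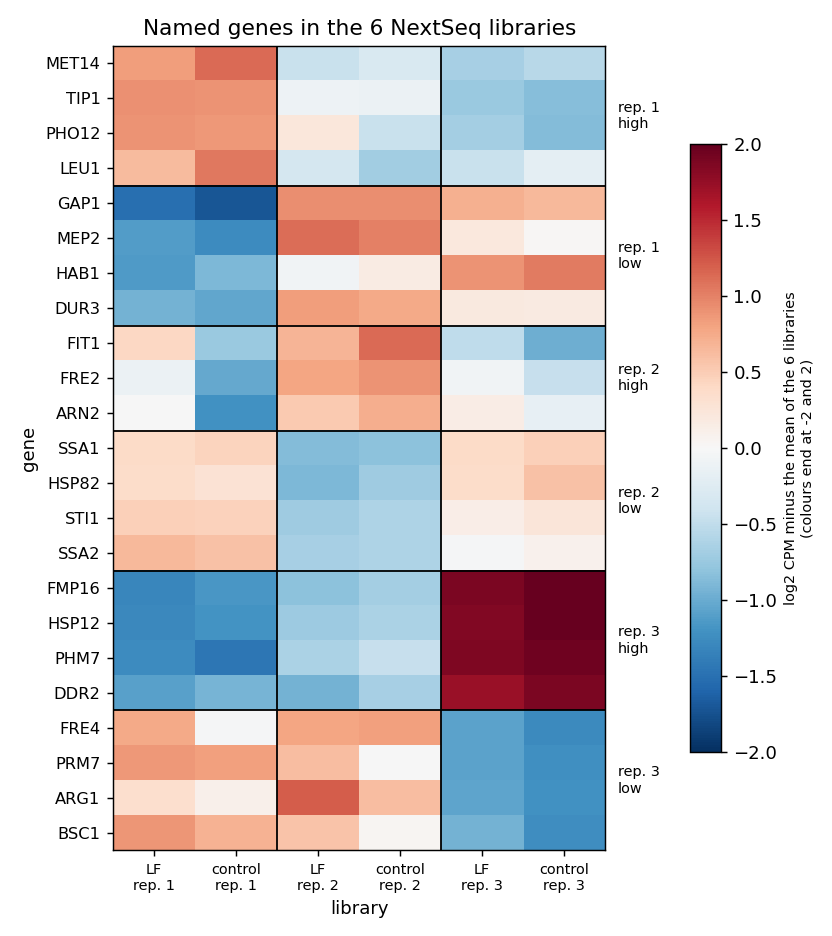
The genes with the largest difference in each of 6 classes (rows, 3 or 4 a class; replicate 1, 2 or 3 apart, high or low) in the 6 NextSeq libraries (columns, LF left of control), as log2 CPM minus the mean of the 6 libraries. LF and control of 1 replicate number have like colours in most rows. The day named at the right holds the highest libraries of the high genes and the lowest of the low genes, as the choice of these genes required.

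Replicate 3 was marked by stress, storage carbohydrate and respiration genes at high levels. In the values that follow, the LF library of a day is given first and its control second. HSP12 (YFL014W), which encodes a small membrane-stabilising heat shock protein, stood at 1330 and 1460 CPM in replicate 3, against 150 and 160 in replicate 1 and 223 and 238 in replicate 2 (log2 difference 2.88 ± 0.058 (SE), adjusted p = 7.8e-10). DDR2 (YOL052C-A), a multistress response gene, stood at 80.2 and 89.4 CPM in replicate 3, against 11.4 and 12.7 in replicate 1 and 12.6 and 15.2 in replicate 2 (log2 difference 2.71 ± 0.055 (SE), adjusted p = 7.8e-10). Both libraries of replicate 3 were several-fold above all other libraries for both genes, and replicates 1 and 2 were close to each other. FMP16 (YDR070C), whose product is found in mitochondria, had 64.7 and 74.3 CPM in replicate 3, against 7.12 and 7.87 in replicate 1 and 10 and 11 in replicate 2 (log2 difference 2.97 ± 0.058 (SE), adjusted p = 7.8e-10), and PHM7 (YOL084W), which the phosphate list also holds, had 51.1 and 53.8 CPM in replicate 3, against 5.87 and 5.15 in replicate 1 and 9.04 and 10.2 in replicate 2 (log2 difference 2.85 ± 0.073 (SE), adjusted p = 3.2e-09). For these, as for all leading genes of the classes here and below, non-overlap with the other libraries was a condition of being named. It is therefore no separate result. Genes named from the lists are called genes with the widest day ranges, a choice that favours non-overlap. Where such genes are said not to overlap, here and below, that is no separate result either.

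The trehalose and glycogen list was high as a whole in replicate 3. All 19 of its genes were higher in replicate 3 (median log2 difference 0.93), 19 were lower in replicate 1 (median -0.67) and 16 were lower in replicate 2 (median -0.34; 9 without LF 2). GPH1, glycogen phosphorylase, had 239 and 277 CPM in replicate 3, against 44.8 and 43.8 in replicate 1 and 67.3 and 83 in replicate 2 (log2 difference 2.16 ± 0.061 (SE), adjusted p = 6.6e-09). GSY2, the main glycogen synthase, had 353 and 369 CPM in replicate 3, against 88.5 and 83.9 in replicate 1 and 126 and 151 in replicate 2 (log2 difference 1.73), and TSL1, a subunit of trehalose synthase, had 774 and 824 CPM in replicate 3, against 219 and 179 in replicate 1 and 211 and 243 in replicate 2 (log2 difference 1.91). Genes that make these reserves and genes that break them down were thus high on the same day. CTT1, the cytosolic catalase, stood at 113 and 158 CPM in replicate 3, against 22.5 and 22.7 in replicate 1 and 19.1 and 21 in replicate 2 (log2 difference 2.66 ± 0.081 (SE), adjusted p = 7.9e-09), the largest day range in the oxidative stress list. Of its 30 genes, 13 were higher (median 0.11) and 9 lower (5 without LF 3) in replicate 3, 10 were higher and 10 lower in replicate 1 (median 0.069; 6 without LF 3 and 6 without control 3 lower), and 2 were higher and 14 lower in replicate 2 (median -0.16; 8 without LF 2, 8 without LF 3 and 9 without control 3).

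Mitochondrial and glucose-repressed functions were higher in replicate 3 as well. Of 20 tricarboxylic acid cycle genes, 17 were higher and 1 was lower (median 0.38), and of 38 respiratory chain and ATP synthase genes 28 were higher and 0 lower (median 0.30), with 2 higher and 26 lower in replicate 1 (median -0.19; 17 without LF 3 and 15 without control 3) and 16 lower in replicate 2 (median -0.13; 10 without LF 2 and 6 without control 2). IDH2, a subunit of NAD-dependent isocitrate dehydrogenase, had 143 and 154 CPM in replicate 3, against 49.1 and 51.3 in replicate 1 and 67.8 and 74.1 in replicate 2 (log2 difference 1.31, adjusted p = 1.9e-08). ACO1, aconitase of the cycle, had 117 and 160 CPM in replicate 3, against 53.4 and 73.1 in replicate 1 and 53.1 and 58 in replicate 2 (log2 difference 1.22). CYC7 and CYC1, the cytochrome c isoforms, differed in pattern: CYC7 had 37.1 and 42.1 CPM in replicate 3, against 17.4 and 21.5 in replicate 1 and 13.4 and 14.2 in replicate 2, and CYC1 had 38.5 and 49.2 CPM in replicate 1, against 22.6 and 17.5 in replicate 2 and 21.9 and 26.3 in replicate 3. CYC7 was highest on replicate 3's day and CYC1 on replicate 1's. Mitochondrial ribosomal protein genes were higher in replicate 3 for 46 of 69 (median 0.21; 15 without LF 3) and lower in replicate 2 for 47 (median -0.19; 23 without LF 2, 28 without control 2 and 22 without LF 3).

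Some isogenes of hexose uptake and glycolysis were highest in replicate 3. HXT7, a high-affinity hexose transporter, had 148 and 157 CPM in replicate 3, against 37.6 and 46.1 in replicate 1 and 40.9 and 48.2 in replicate 2 (log2 difference 1.83), and HXT5, a transporter of slow-growing cells, had 164 and 183 CPM in replicate 3, against 38.8 and 33.5 in replicate 1 and 62.2 and 70.7 in replicate 2 (log2 difference 1.82). HXT1, the low-affinity transporter of high glucose, went the other way, with 348 and 342 CPM in replicate 3, against 508 and 455 in replicate 1 and 722 and 585 in replicate 2 (log2 difference -0.70). HXT7 shares sequence with HXT6 and HXT3, so its reads may be split between them. TDH1, a glyceraldehyde-3-phosphate dehydrogenase known from stationary phase cells, had 1350 and 1550 CPM in replicate 3, against 217 and 208 in replicate 1 and 311 and 441 in replicate 2 (log2 difference 2.36 ± 0.096 (SE), adjusted p = 5.8e-08), and HXK1, a glucose-repressed hexokinase, had 1380 and 1560 CPM in replicate 3, against 432 and 418 in replicate 1 and 361 and 495 in replicate 2 (log2 difference 1.78). For these sugar kinase and dehydrogenase genes, too, both libraries of replicate 3 lay above the other 4. The whole list of 15 hexose transporters and sensors had 6 higher and 4 lower in replicate 3, 3 and 5 in replicate 1, and 3 and 3 in replicate 2.

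Vacuolar hydrolases and autophagy genes were also high on that day. Of 13 vacuolar hydrolase genes, 10 were higher and 0 lower in replicate 3 (median 0.57), and 10 were lower in replicate 1 (median -0.40). PEP4, which encodes proteinase A and activates other vacuolar proteases, had 1480 and 1490 CPM in replicate 3, against 876 and 719 in replicate 1 and 1010 and 1080 in replicate 2 (log2 difference 0.70). Of 27 autophagy genes, 18 were higher and 4 lower in replicate 3 (median 0.34), and 17 were lower in replicate 1 (median -0.26). ATG8, whose product coats the growing autophagosome, had 35.3 and 36.7 CPM in replicate 3, against 20.1 and 17.5 in replicate 1 and 17.6 and 22.7 in replicate 2 (log2 difference 0.89). Degradation genes of the vacuole and those of the proteasome, described below, were not highest on the same day.

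The stress response element AGGGG, the letters that Msn2 and Msn4 bind, was counted in the 300 bases that lie 400 to 101 bases before each start codon, on both strands (R64 sequence, credited to RefSeq). It was found in 42.2% of the windows of genes placed as replicate 3 high, in 84.2% of the trehalose and glycogen windows and in 15.3% of the replicate 3 low windows, against 23.8% of all tested genes and 23.5% of all 5985 windows. The DDR2 window, chrXV:231856-232155 on the minus strand, is shown because DDR2 is among the 4 leading genes of replicate 3 and holds 3 copies, which begin 248, 203 and 175 bases before its start codon. Capitals mark them, and a copy on the other strand reads CCCCT.
DDR2: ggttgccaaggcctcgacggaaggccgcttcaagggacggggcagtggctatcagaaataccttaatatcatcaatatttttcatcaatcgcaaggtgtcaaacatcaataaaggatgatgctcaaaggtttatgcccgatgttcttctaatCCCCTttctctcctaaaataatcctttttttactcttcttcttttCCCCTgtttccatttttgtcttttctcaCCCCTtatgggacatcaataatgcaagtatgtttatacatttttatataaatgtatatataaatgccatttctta
A match of these few letters is a description and no measured binding site.

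**Figure D3:**
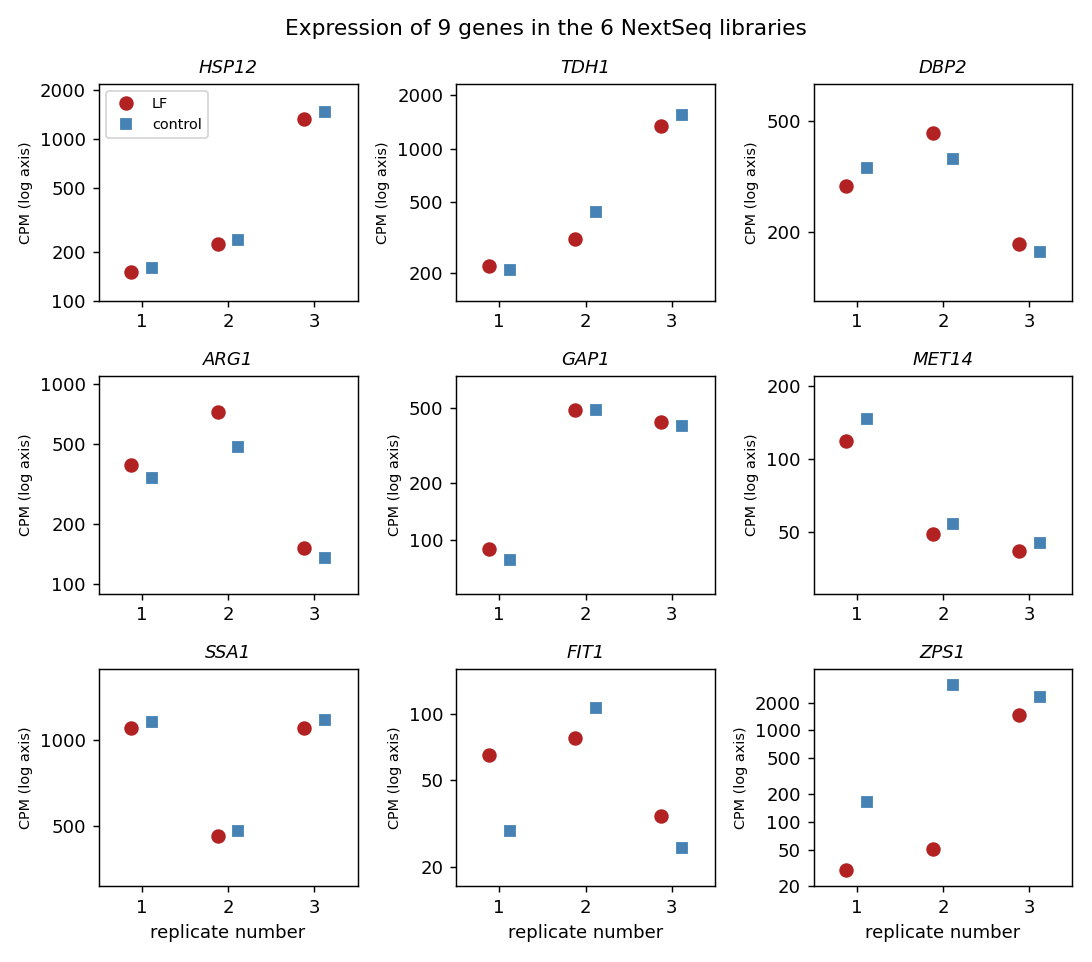
CPM (vertical axis, logarithmic) of 9 genes in each NextSeq library by replicate number, with LF as circles left of its control as squares. For 7 genes LF and control of a day differ by less than the day that stands apart from the others, while FIT1 in replicate 1 and ZPS1 in replicates 1 and 2 differ between LF and control as well.

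Genes for making ribosomes were low on the day of replicate 3. All 63 ribosome biogenesis genes were lower in replicate 3 (median log2 difference -0.73), while 63 were higher in replicate 1 (median 0.33; 32 without control 1) and 61 in replicate 2 (median 0.40; 40 without LF 2). RRP12, which exports pre-ribosomes from the nucleus, had 161 and 159 CPM in replicate 3, against 298 and 322 in replicate 1 and 357 and 318 in replicate 2 (log2 difference -1.02, adjusted p = 1.1e-06). NOP7, a factor of large subunit assembly, had 219 and 199 CPM in replicate 3, against 361 and 406 in replicate 1 and 481 and 402 in replicate 2 (log2 difference -0.97 ± 0.082 (SE), adjusted p = 7.2e-06). DBP2 (YNL112W), a DEAD-box RNA helicase, had 181 and 170 CPM in replicate 3, against 292 and 340 in replicate 1 and 456 and 366 in replicate 2 (log2 difference -1.04 ± 0.092 (SE), adjusted p = 1e-05). The libraries of replicate 3 lay below the other 4 for all 3 genes, and those of replicates 1 and 2 lay close together or overlapped. The replicate 3 count of this list moved by under 1.5 times with any library left out.

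Structural genes of the ribosome followed with smaller differences. Of 132 cytoplasmic ribosomal protein genes, 126 were lower in replicate 3 (median -0.40; 51 without LF 3 and 50 without control 3) and 1, RPL15B, was higher. Their summed level was 117000 and 113800 CPM in replicate 3, against 147400 and 157900 CPM in replicate 1 and 157300 and 140600 CPM in replicate 2. Replicate 3 was thus lowest in both libraries, and in replicates 1 and 2 LF and control were ordered in opposite ways. Many of these genes are near-identical pairs whose reads may be split, such as RPL8A and RPL8B. In replicate 1, 84 were higher (median 0.24; 8 without control 1, 19 without LF 3 and 12 without control 3), and in replicate 2, 20 were (median 0.16; 74 without control 1, 1 without LF 2, 66 without control 2, 4 without LF 3 and 3 without control 3). The standing of replicates 1 and 2 to each other thus rested on single libraries for this list.

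Translation factors and some regulators of growth genes were lowest on the same day. Of 34 translation factor genes, 30 were lower and 2 higher in replicate 3 (median -0.33; 17 without LF 3), 23 were higher in replicate 1 (median 0.19; 10 without control 1, 10 without LF 3 and 8 without control 3) and 8 in replicate 2 (19 without control 1, 1 without LF 2, 13 without control 2, 1 without LF 3 and 1 without control 3). YEF3, elongation factor 3, had 3300 and 3320 CPM in replicate 3, against 5030 and 4970 in replicate 1 and 5590 and 4890 in replicate 2 (log2 difference -0.63). IFH1, a coactivator of ribosomal protein genes, had 123 and 115 CPM in replicate 3, against 158 and 160 in replicate 1 and 168 and 151 in replicate 2 (log2 difference -0.42 ± 0.05 (SE), adjusted p = 7.1e-05), and FHL1, the factor that recruits it, had 128 and 116 CPM in replicate 3, against 121 and 122 in replicate 1 and 136 and 130 in replicate 2 and was not called. SFP1, a further activator of growth genes, had 157 and 159 CPM in replicate 3, against 179 and 170 in replicate 1 and 180 and 174 in replicate 2 (log2 difference -0.15).

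The PAC and RRPE elements, GATGAG and AAAATTTT, are known from the promoters of ribosome biogenesis genes. In the same 300-base windows, PAC was found in 73.0% and RRPE in 74.6% of this gene list, in 30.9% and 24.5% of the replicate 3 low genes, and in 18.2% and 9.65% of all tested genes (18.4% and 9.07% of all windows). The DBP2 window, chrXIV:413239-413538 on the plus strand, is shown because DBP2 had the largest day range of the list and holds 1 PAC and 1 RRPE that do not overlap, 155 and 145 bases before the start codon. Capitals mark both, and a PAC on the other strand reads CTCATC.
DBP2: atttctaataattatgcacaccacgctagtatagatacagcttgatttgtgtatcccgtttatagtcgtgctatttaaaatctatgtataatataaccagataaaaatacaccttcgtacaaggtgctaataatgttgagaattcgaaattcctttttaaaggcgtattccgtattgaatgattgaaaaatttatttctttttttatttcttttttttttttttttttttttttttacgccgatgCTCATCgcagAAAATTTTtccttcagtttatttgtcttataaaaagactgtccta
RRPE was in 3.47% of the replicate 3 high windows.

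The other leading genes of the replicate 3 low class were of mixed function. PRM7 (YDL039C), a pheromone-regulated membrane protein gene, had 17.4 and 15.5 CPM in replicate 3, against 66.2 and 64.1 in replicate 1 and 55.8 and 36.3 in replicate 2 (log2 difference -1.73 ± 0.11 (SE), adjusted p = 1.6e-06), and BSC1 (YDL037C), its neighbour on chromosome IV, had 6.47 and 5.22 CPM in replicate 3, against 22.8 and 20.1 in replicate 1 and 18.4 and 12.8 in replicate 2 (log2 difference -1.65 ± 0.1 (SE), adjusted p = 1.2e-06). FRE4, a siderophore-iron reductase gene of the iron list, had 31.2 and 27.2 CPM in replicate 3, against 111 and 64.9 in replicate 1 and 114 and 116 in replicate 2 (log2 difference -1.77 ± 0.14 (SE), adjusted p = 5.1e-06). Replicate 3 was lowest for each, and in FRE4 the control library of replicate 1 lay well below its LF library. OLE1, the fatty acid desaturase, had 186 and 186 CPM in replicate 3, against 436 and 422 in replicate 1 and 368 and 352 in replicate 2 (log2 difference -1.08), with both libraries of replicate 3 below all others.

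**Figure D4:**
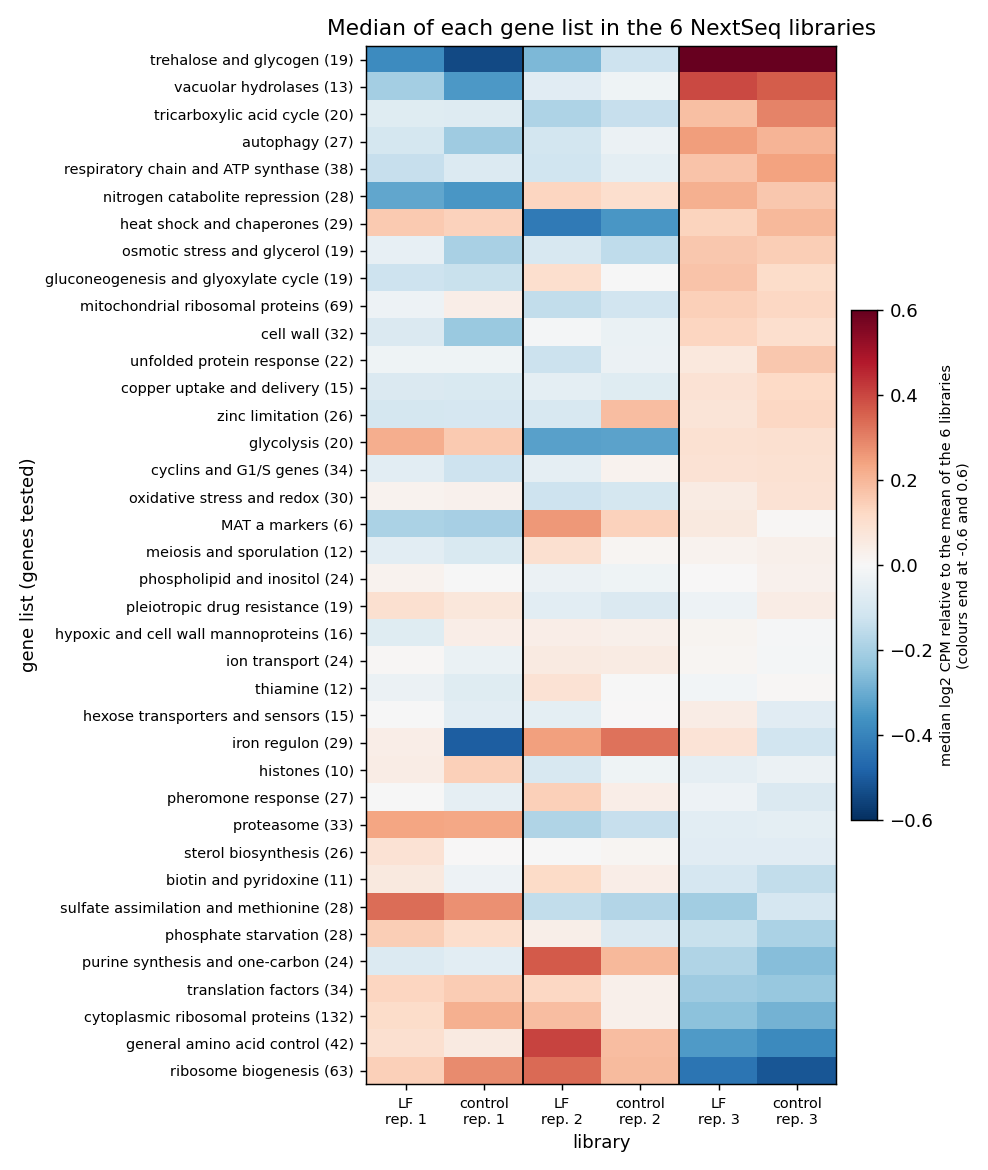
Median log2 CPM of each gene list relative to the mean of the 6 libraries (colour), with lists as rows ordered by replicate 3 and libraries as columns, LF left of control. Storage carbohydrate, vacuolar and respiration lists are high and ribosome biogenesis and amino acid lists low in both libraries of replicate 3, nitrogen genes are low in both of replicate 1, and chaperone and glycolysis lists are low in both of replicate 2.

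Amino acid synthesis genes of the general control regulon were ordered replicate 2, replicate 1, replicate 3. Of 42 genes, 40 were lower in replicate 3 (median -0.52) and 34 were higher in replicate 2 (median 0.41), with 17 higher in replicate 1 (median 0.10; 11 without control 1 and 9 without LF 3). ARG1 (YOL058W), argininosuccinate synthase, had 151 and 135 CPM in replicate 3, against 395 and 338 in replicate 1 and 725 and 483 in replicate 2 (log2 difference -1.70 ± 0.087 (SE), adjusted p = 3e-07). ARG3, ornithine carbamoyltransferase, had 8.84 and 9.6 CPM in replicate 3, against 22.5 and 21.5 in replicate 1 and 39.9 and 27.3 in replicate 2 (log2 difference -1.55). The days did not overlap for either arginine gene, and in replicate 2 the LF library was above its control for both. The 1 gene of the list higher in replicate 3 was BAT2, an aminotransferase of branched-chain amino acids. GCN4, which encodes the regulator itself, had 1240 and 1340 CPM in replicate 3, against 1590 and 1620 in replicate 1 and 1900 and 1740 in replicate 2 (log2 difference -0.40 ± 0.082 (SE), adjusted p = 0.0021), a smaller spread than that of the arginine genes. Gcn4 is known to be controlled mostly in translation.

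LEU1 (YGL009C), isopropylmalate isomerase of leucine synthesis, did not follow the list. It had 222 and 298 CPM in replicate 1, against 113 and 88.6 in replicate 2 and 106 and 126 in replicate 3 (log2 difference 1.26 ± 0.11 (SE), adjusted p = 3e-05), highest on the day of replicate 1. Purine and one-carbon genes were highest in replicate 2, with 19 of 24 higher there (median 0.43) and 18 lower in replicate 3 (median -0.33; 11 without LF 3). SHM2, the cytosolic serine hydroxymethyltransferase, had 1940 and 1740 CPM in replicate 2, against 1140 and 1120 in replicate 1 and 1010 and 983 in replicate 3 (log2 difference 0.80), and GCV1, of the glycine cleavage system, had 432 and 388 CPM in replicate 2, against 238 and 226 in replicate 1 and 255 and 237 in replicate 3 (log2 difference 0.78). IMD2, an IMP dehydrogenase of guanine nucleotide synthesis, was the reverse, with 124 and 130 CPM in replicate 3, against 47.6 and 45.6 in replicate 1 and 68.4 and 62.9 in replicate 2 (log2 difference 1.20).

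The Gcn4 element TGACTC was found in 28.5% of the replicate 2 high windows, in 66.7% of the general amino acid control list and in 70.8% of the purine and one-carbon list, against 8.92% of all tested genes and 8.47% of all windows. The ARG1 window, chrXV:218811-219110 on the plus strand, is shown as that of the amino acid gene with the largest range between days, and holds copies 345 and 274 bases before the start codon. Capitals mark them, and the other strand reads GAGTCA.
ARG1: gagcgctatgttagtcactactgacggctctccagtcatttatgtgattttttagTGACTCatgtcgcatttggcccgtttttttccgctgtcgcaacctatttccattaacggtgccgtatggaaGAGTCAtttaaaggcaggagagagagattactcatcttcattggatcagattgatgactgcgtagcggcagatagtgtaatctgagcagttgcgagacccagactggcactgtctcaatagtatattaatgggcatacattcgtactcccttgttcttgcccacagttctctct
Transporters of nitrogen compounds led the genes low in replicate 1. GAP1 (YKR039W), the general amino acid permease, had 90 and 78.2 CPM in replicate 1, against 485 and 487 in replicate 2 and 418 and 398 in replicate 3 (log2 difference -2.41 ± 0.062 (SE), adjusted p = 2.6e-08). MEP2 (YNL142W), the high-affinity ammonium permease, had 42.4 and 38.4 CPM in replicate 1, against 199 and 184 in replicate 2 and 106 and 93.1 in replicate 3 (log2 difference -1.77 ± 0.053 (SE), adjusted p = 4.8e-08), and DUR3 (YHL016C), the urea transporter, had 24.8 and 23.4 CPM in replicate 1, against 85.7 and 80.6 in replicate 2 and 54.9 and 54.4 in replicate 3 (log2 difference -1.49 ± 0.059 (SE), adjusted p = 2.2e-07). In each, replicate 1 was lowest, the libraries of a day were close to each other, and no day overlapped another. PUT4, the proline permease, had a different order, with 9.07 and 7.8 CPM in replicate 1, against 19.9 and 22 in replicate 2 and 54.7 and 56.1 in replicate 3 (log2 difference -2.02). Of 28 genes under nitrogen catabolite repression, 22 were lower in replicate 1 (median -0.55), 14 were higher in replicate 2 (median 0.13) and 18 in replicate 3 (median 0.25). HAB1 (YBR285W), the remaining leading gene of the replicate 1 low class, had 4.27 and 5.01 CPM in replicate 1, against 8.86 and 10.5 in replicate 2 and 17.3 and 19.1 in replicate 3 (log2 difference -1.52 ± 0.1 (SE), adjusted p = 4.1e-06), near the level at which genes were tested.

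The regulators of this list differed among themselves. GAT1, an activator that is itself under nitrogen control, had 55.5 and 52.9 CPM in replicate 1, against 115 and 106 in replicate 2 and 106 and 94.1 in replicate 3 (log2 difference -0.95 ± 0.052 (SE), adjusted p = 1e-06). GLN3, the partner activator, had 98 and 95.5 CPM in replicate 1, against 115 and 105 in replicate 2 and 102 and 96.1 in replicate 3 and was not called in replicate 1 (log2 difference -0.11, adjusted p = 0.097). The GATA element GATAAG was in 75.0% of the windows of the nitrogen list, in 20.3% of the replicate 1 low and 27.3% of the replicate 2 high windows, against 13.9% of all tested genes and 14.0% of all windows. The GAP1 window, chrXI:514663-514962 on the plus strand, is shown because GAP1 had the largest difference of its class and holds 3 copies, at 343, 293 and 242 bases before the start codon, in capitals (CTTATC on the other strand).
GAP1: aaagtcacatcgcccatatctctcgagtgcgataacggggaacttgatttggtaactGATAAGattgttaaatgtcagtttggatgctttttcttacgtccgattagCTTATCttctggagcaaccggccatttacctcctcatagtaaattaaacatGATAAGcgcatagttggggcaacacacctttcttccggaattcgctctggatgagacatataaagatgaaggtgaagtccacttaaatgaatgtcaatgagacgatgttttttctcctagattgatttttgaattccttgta

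Sulfur genes and proteasome genes were high on the day of replicate 1. MET14 (YKL001C), adenylyl-sulfate kinase, had 119 and 146 CPM in replicate 1, against 49 and 54 in replicate 2 and 41.8 and 45.2 in replicate 3 (log2 difference 1.49 ± 0.054 (SE), adjusted p = 1.3e-07). MET17, which joins sulfide to O-acetylhomoserine, had 933 and 950 CPM in replicate 1, against 379 and 397 in replicate 2 and 386 and 443 in replicate 3 (log2 difference 1.23), and MET5, a sulfite reductase subunit, had 237 and 275 CPM in replicate 1, against 117 and 114 in replicate 2 and 111 and 129 in replicate 3 (log2 difference 1.11). For these enzymes both libraries of replicate 1 lay far above the other 4, while replicates 2 and 3 overlapped or nearly so. MET17 overlaps YLR302C, from which unstranded counts cannot separate it. Of 28 sulfate assimilation and methionine genes, 22 were higher in replicate 1 (median 0.46), 17 were lower in replicate 2 (median -0.28) and 15 in replicate 3 (median -0.18; 9 without LF 3). MET4, the activator of the pathway, had 202 and 198 CPM in replicate 1, against 215 and 204 in replicate 2 and 200 and 191 in replicate 3 and was not called. MET32, which helps bring Met4 to DNA, had 32.6 and 35.6 CPM in replicate 1, against 23.7 and 28.8 in replicate 2 and 30.2 and 30.4 in replicate 3 (log2 difference 0.27).

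The CACGTG box, a site for Cbf1 with Met4 and for Pho4, was in 60.7% of the sulfate and methionine windows, in 57.1% of the phosphate starvation windows and in 11.0% of the replicate 1 high windows, against 4.64% of all tested genes and 4.56% of all windows. The MET14 window, chrXI:439486-439785 on the minus strand, is shown as that of the leading gene of replicate 1, with 1 box 228 bases before the start codon, in capitals. This box reads the same on both strands.
MET14: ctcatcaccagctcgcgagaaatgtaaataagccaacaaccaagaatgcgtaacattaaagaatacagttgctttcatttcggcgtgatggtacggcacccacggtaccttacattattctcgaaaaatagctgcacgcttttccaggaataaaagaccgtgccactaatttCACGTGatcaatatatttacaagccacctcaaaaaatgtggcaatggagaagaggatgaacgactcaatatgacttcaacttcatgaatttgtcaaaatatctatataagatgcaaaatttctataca
Phosphate starvation genes were higher in replicate 1 for 15 of 28 (median 0.21) and lower in replicate 3 for 15 (median -0.25). PHO12 (YHR215W), a secreted acid phosphatase, had 64.8 and 63.1 CPM in replicate 1, against 40.5 and 25.5 in replicate 2 and 21.7 and 19.1 in replicate 3 (log2 difference 1.32 ± 0.1 (SE), adjusted p = 1e-05), but 81.4% of its sequence windows are shared with PHO11 or PHO5, so these genes cannot be fully separated. PHO81, an inhibitor of the pathway's kinase, had 284 and 293 CPM in replicate 1, against 233 and 241 in replicate 2 and 211 and 213 in replicate 3 (log2 difference 0.36), and PHO4 had 96.9 and 87 CPM in replicate 1, against 90 and 80.4 in replicate 2 and 95.1 and 86.5 in replicate 3 and was not called.

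All 33 proteasome genes were higher in replicate 1 (median 0.35), and 30 were lower in replicate 2 (median -0.25; 17 without LF 2 and 16 without LF 3) and 12 in replicate 3 (median -0.12; 1 without LF 3 and 2 without control 3). PRE1, a subunit of the core particle, had 292 and 303 CPM in replicate 1, against 202 and 207 in replicate 2 and 206 and 221 in replicate 3 (log2 difference 0.51 ± 0.045 (SE), adjusted p = 2.4e-05), and RPT2, an ATPase of the regulatory particle, had 447 and 459 CPM in replicate 1, against 301 and 316 in replicate 2 and 376 and 379 in replicate 3 (log2 difference 0.41). No library of replicate 1 overlapped the others for these genes, which their choice by day range favours. RPN4, the activator of proteasome genes, had 202 and 207 CPM in replicate 1, against 167 and 167 in replicate 2 and 161 and 163 in replicate 3 (log2 difference 0.32 ± 0.043 (SE), adjusted p = 0.00041). The Rpn4 element GGTGGCAAA was in 63.6% of the proteasome windows and 7.51% of the replicate 1 high windows, against 1.25% of all tested genes and 1.15% of all windows. The PRE1 window, chrV:177435-177734 on the plus strand, is shown because PRE1 has the largest difference in replicate 1 among the 4 proteasome genes with the widest day ranges, with 1 copy 142 bases before the start codon, in capitals (TTTGCCACC on the other strand).
PRE1: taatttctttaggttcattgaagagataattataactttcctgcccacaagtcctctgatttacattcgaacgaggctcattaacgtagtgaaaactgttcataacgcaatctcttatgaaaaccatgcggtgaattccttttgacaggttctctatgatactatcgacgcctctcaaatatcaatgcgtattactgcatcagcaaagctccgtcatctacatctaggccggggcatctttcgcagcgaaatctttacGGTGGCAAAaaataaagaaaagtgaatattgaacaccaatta

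TIP1 (YBR067C), a cell wall mannoprotein gene, was the second gene of the replicate 1 high class, with 340 and 337 CPM in replicate 1, against 168 and 166 in replicate 2 and 108 and 100 in replicate 3 (log2 difference 1.36 ± 0.044 (SE), adjusted p = 8.3e-08). FAS2, the alpha subunit of fatty acid synthase, had 996 and 1080 CPM in replicate 1, against 763 and 733 in replicate 2 and 550 and 577 in replicate 3 (log2 difference 0.67), and ACC1, acetyl-CoA carboxylase, had 815 and 839 CPM in replicate 1, against 586 and 561 in replicate 2 and 460 and 497 in replicate 3 (log2 difference 0.66). SNQ2, a multidrug exporter, had 922 and 937 CPM in replicate 1, against 648 and 587 in replicate 2 and 518 and 560 in replicate 3 (log2 difference 0.69). Replicate 1 was highest in all of these. The lists they belong to were mixed: of 24 phospholipid and inositol genes 8 were higher (5 without LF 1 and 3 without LF 3) and 4 lower in replicate 1, and of 19 pleiotropic drug resistance genes 9 were higher and 4 lower.

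Cytosolic chaperones led the genes low in replicate 2. SSA1 (YAL005C), an Hsp70, had 464 and 482 CPM in replicate 2, against 1100 and 1160 in replicate 1 and 1100 and 1180 in replicate 3 (log2 difference -1.26 ± 0.073 (SE), adjusted p = 7.2e-06). HSP82 (YPL240C), an Hsp90, had 202 and 232 CPM in replicate 2, against 488 and 461 in replicate 1 and 488 and 569 in replicate 3 (log2 difference -1.21 ± 0.074 (SE), adjusted p = 7.3e-06), and STI1 (YOR027W), a co-chaperone that joins Hsp70 to Hsp90, had 255 and 273 CPM in replicate 2, against 583 and 572 in replicate 1 and 458 and 495 in replicate 3 (log2 difference -0.99 ± 0.06 (SE), adjusted p = 7.3e-06). SSA2 (YLL024C), the close relative of SSA1, had 956 and 986 CPM in replicate 2, against 2360 and 2260 in replicate 1 and 1480 and 1600 in replicate 3 (log2 difference -0.96 ± 0.081 (SE), adjusted p = 5e-05). For each, both libraries of replicate 2 were below the other 4, and replicates 1 and 3 were close for SSA1 and HSP82. Of the sequence windows of SSA1, 51.9% occur in SSA2, and 52.2% of those of SSA2 in SSA1, so their reads may be split. Of 29 heat shock and chaperone genes, 23 were lower in replicate 2 (median -0.57), and the 2 that were higher were SSB1 and SSB2, ribosome-bound Hsp70s that are known to follow ribosomal protein genes.

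HSP26 and HSP42, the small heat shock proteins, and HSP104, the disaggregase, were at the same time highest in replicate 3. HSP104 had 861 and 966 CPM in replicate 3, against 503 and 453 in replicate 1 and 337 and 368 in replicate 2 (log2 difference 1.15 in replicate 3 and -0.91 in replicate 2), and HSP26 had 280 and 320 CPM in replicate 3, against 54.4 and 49.3 in replicate 1 and 78.7 and 94.4 in replicate 2 (log2 difference 2.16 in replicate 3 and -1.63 in replicate 1). The list had 16 genes higher and 5 lower (2 without LF 3 and 3 without control 3) in replicate 3 (median 0.28), and 16 higher and 8 lower in replicate 1 (median 0.22). HSF1, which encodes the heat shock factor, had 144 and 143 CPM in replicate 2, against 165 and 147 in replicate 1 and 152 and 142 in replicate 3 and was not called. The heat shock element, taken as GAANNTTC, was in 48.3% of the windows of this list and 17.5% of the replicate 2 low windows, against 12.3% of all tested genes and 12.3% of all windows. The SSA1 window, chrI:141532-141831 on the minus strand, is shown as that of the leading gene of the class, with matches at 359 and 256 bases before the start codon in capitals. This pattern reads the same on both strands.
SSA1: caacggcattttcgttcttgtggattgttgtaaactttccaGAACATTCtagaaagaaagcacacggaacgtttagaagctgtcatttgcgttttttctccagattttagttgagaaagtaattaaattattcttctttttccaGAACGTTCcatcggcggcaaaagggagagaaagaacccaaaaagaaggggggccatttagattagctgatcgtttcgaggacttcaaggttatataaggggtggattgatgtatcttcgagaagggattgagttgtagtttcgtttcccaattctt
ACGCGT, the element of Mbp1 at genes of the G1 to S transition, was in 11.9% of the replicate 2 low windows, against 4.17% of all tested genes and 3.96% of all windows. The list of 34 cyclins and G1/S genes was not low as a whole in replicate 2. It had 6 genes higher and 5 lower there (median -0.022; 8 without control 1, 2 without LF 2 and 2 without LF 3 lower).

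Glycolysis genes as a list were lowest in replicate 2 and not highest in replicate 3. Of 20 genes, 18 were lower in replicate 2 (median -0.53; 11 without LF 3 and 10 without control 3), 12 were higher and 5 lower in replicate 1 (median 0.29; 5 without LF 1, 5 without control 1, 6 without LF 3 and 6 without control 3), and 8 were higher in replicate 3 (median 0.14; 5 without LF 3 and 5 without control 3). Their summed level was 64270 and 60900 CPM in replicate 2, against 96050 and 91030 CPM in replicate 1 and 83190 and 85180 CPM in replicate 3. The bulk of the pathway thus had an order of days that TDH1 and HXK1 did not share.

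Metal genes were the main exception to the small differences between LF and control within days. ZRT1, the high-affinity zinc transporter, had 143 CPM under LF and 708 in the control of replicate 1, 599 under LF and 4440 in the control of replicate 2, and 3400 under LF and 4220 in the control of replicate 3. ZPS1, a zinc-regulated secreted protein gene, had 30 and 166 CPM in replicate 1, 50.9 and 3100 in replicate 2, and 1460 and 2330 in replicate 3. LF was below its control on all 3 days for both genes, with log2 differences of LF minus control of -2.31, -2.89 and -0.311 for ZRT1 and -2.47, -5.92 and -0.679 for ZPS1. ZAP1, the zinc-sensing activator, which also activates its own gene, had 33.2 and 65.4 CPM, 31.1 and 191 CPM, and 186 and 221 CPM on the same days. None of these was called for LF, either with or without the replicate block, and whether the effect of LF differed between days could not be tested, since each day has 1 library of each.

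The day difference of these genes was nonetheless called. ZPS1 was lower in replicate 1 (log2 difference -4.14, adjusted p = 0.0048) and higher in replicate 3 (log2 difference 3.50, adjusted p = 0.0033), as was ZRT1 (log2 difference -3.09 and 2.54). Replicate 2 was split, its control near the level of replicate 3 and its LF library near replicate 1. The summed level of the 26 zinc limitation genes was 11420 and 13430 CPM in replicate 3, against 6112 and 6752 in replicate 1 and 6859 and 14770 in replicate 2. Of the 26 genes, 14 were lower and 5 higher (3 without LF 1, 3 without control 1 and 2 without LF 3) in replicate 1 (median -0.21), 5 were higher (12 without LF 1, 9 without control 1, 11 without LF 2, 2 without control 2 and 2 without control 3) and 1 lower (5 without control 1 and 5 without control 2) in replicate 2, and 14 were higher and 5 lower (3 without LF 3 and 3 without control 3) in replicate 3 (median 0.20; 5 without LF 3 and 8 without control 3). The median in replicate 2 was 0.10, and it lay between -0.038 and 0.21 with 1 library left out.

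The Zap1 element (ZRE, searched on both strands with its middle 3 bases free) was in 19.2% of the zinc list windows, against 0.559% of all tested genes and 0.535% of all windows. The ZPS1 window, chrXV:34258-34557 on the plus strand, is shown because ZPS1 had the widest range of day means of all genes tested, with matches beginning 329 and 314 bases before the start codon, in capitals.
ZPS1: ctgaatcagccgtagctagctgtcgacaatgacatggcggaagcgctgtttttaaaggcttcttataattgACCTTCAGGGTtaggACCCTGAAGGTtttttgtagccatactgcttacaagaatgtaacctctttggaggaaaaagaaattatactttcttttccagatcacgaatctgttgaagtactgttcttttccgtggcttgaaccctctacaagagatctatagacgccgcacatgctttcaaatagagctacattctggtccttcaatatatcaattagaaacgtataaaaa

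**Figure D5:**
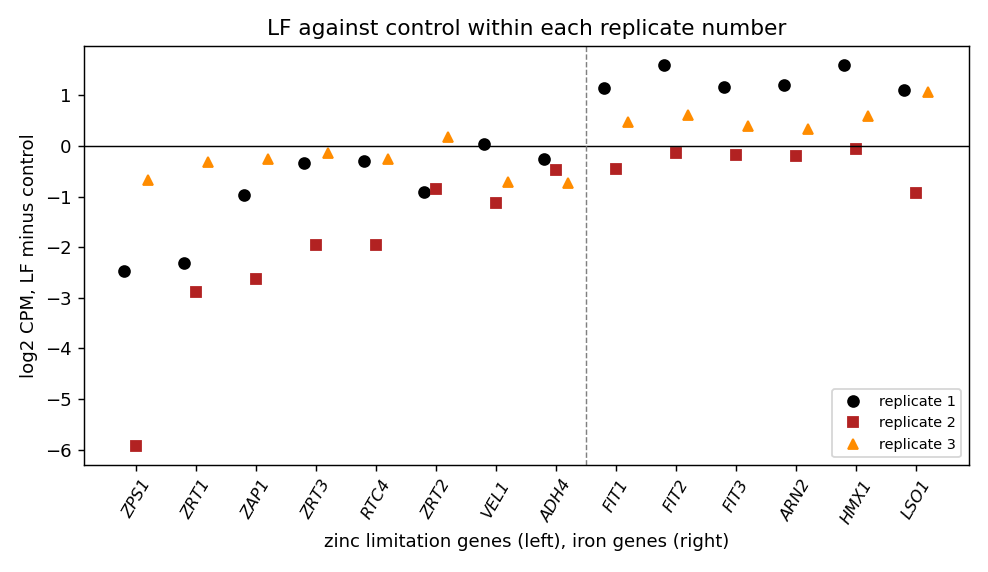
Log2 CPM of LF minus control (vertical axis) within each replicate number for 8 zinc limitation genes (left of the dashed line) and 6 iron genes (right), with 1 library of each behind every point. Values for ZPS1 are -2.47, -5.92 and -0.679 in replicates 1, 2 and 3, and the iron genes are above 0 in replicates 1 and 3 and below 0 in replicate 2.

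Iron genes differed between LF and control in replicate 1 in particular. FIT2, a cell wall mannoprotein gene that retains siderophores, had 1790 CPM under LF and 591 in the control of replicate 1, 2430 and 2680 in replicate 2, and 2690 and 1760 in replicate 3. ARN2, a siderophore transporter gene, had 929 and 402 CPM, 1340 and 1540 CPM, and 1040 and 833 CPM on these days. LF minus control was 1.60, -0.14 and 0.615 on the log2 scale for FIT2 and 1.21, -0.196 and 0.325 for ARN2, so the sign was not the same on all days. In replicate 1, 6 genes were over 2-fold higher under LF (ARN2, FIT1, FIT2, FIT3, HMX1 and LSO1) and 2 were lower (ZPS1 and ZRT1). In replicate 2, 0 were higher and 6 lower (RTC4, VEL1, ZAP1, ZPS1, ZRT1 and ZRT3), and in replicate 3, 1 was higher (LSO1) and 2 lower (YDR024W and YLR342W-A). LSO1, VEL1, YDR024W and YLR342W-A lay between 3.54 and 17 CPM in all libraries, near the level at which genes were tested.

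Between days, 20 of 29 iron regulon genes were higher in replicate 2 (median 0.42; 11 without control 2) and 17 were lower in replicate 1 (median -0.31; 9 without control 1). The summed level of the list was 21430 and 21940 CPM in replicate 2, against 15760 and 9242 in replicate 1 and 17980 and 14690 in replicate 3, so that the control of replicate 1 was the lowest library. FIT1 had 77.9 and 107 CPM in replicate 2, against 64.8 and 29.2 in replicate 1 and 34.2 and 24.6 in replicate 3 (log2 difference 1.38 ± 0.23 (SE), adjusted p = 0.0015), and FRE2, a ferric reductase gene, had 126 and 137 CPM in replicate 2, against 67.2 and 36.1 in replicate 1 and 69.4 and 53.1 in replicate 3 (log2 difference 1.27 ± 0.14 (SE), adjusted p = 0.00021). ARN2 was called in replicate 2 (log2 difference 0.94 ± 0.2 (SE), adjusted p = 0.0063) but not without the control library of replicate 2, where its log2 difference was 0.43 with an adjusted p of 0.077. AFT1, the iron-sensing activator, had 195 and 192 CPM in replicate 2, against 193 and 169 in replicate 1 and 187 and 176 in replicate 3 and was not called. Its core GCACCC was in 58.6% of the iron list windows, 11.4% of the replicate 1 low and 6.98% of the replicate 2 high windows, against 4.64% of all tested genes and 4.9% of all windows.

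The regulators of the stress and respiration genes of replicate 3 were themselves higher on that day, some by little. MSN4, which encodes a stress activator and is itself stress-induced, had 89.3 and 87 CPM in replicate 3, against 41.7 and 37.6 in replicate 1 and 41.5 and 48.2 in replicate 2 (log2 difference 1.07 ± 0.069 (SE), adjusted p = 1.7e-06), and MSN2, its constitutive partner, had 190 and 184 CPM in replicate 3, against 167 and 162 in replicate 1 and 150 and 166 in replicate 2 (log2 difference 0.21). HAP4, the limiting subunit of the activator of respiration, had 39.5 and 45.4 CPM in replicate 3, against 24.1 and 25.5 in replicate 1 and 27.6 and 29.2 in replicate 2 (log2 difference 0.68 ± 0.056 (SE), adjusted p = 7.2e-06). Both libraries of replicate 3 were above the other 4 for all 3 genes. YAP1, the oxidative stress activator, was by contrast highest in replicate 1, with 338 and 348 CPM in replicate 1, against 282 and 279 in replicate 2 and 265 and 262 in replicate 3 (log2 difference 0.34). HAC1, the activator of the unfolded protein response, had 803 and 856 CPM in replicate 1, against 1060 and 996 in replicate 2 and 950 and 908 in replicate 3 (log2 difference -0.23 in replicate 1 and 0.22 in replicate 2). UPC2, INO2, OPI1 and MAC1, which control sterol, phospholipid and copper genes, were not called in the overall test.

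Lists for the cell surface and cell cycle had moderate counts. Of 32 cell wall genes, 18 were higher in replicate 3 (median 0.19; 8 without LF 3 and 7 without control 3) and 19 were lower in replicate 1 (median -0.24; 12 without control 1 and 12 without LF 3). YGP1, a secreted glycoprotein gene of slow growth, had 1070 and 1110 CPM in replicate 3, against 273 and 249 in replicate 1 and 294 and 284 in replicate 2 (log2 difference 1.98 ± 0.06 (SE), adjusted p = 7.9e-09), and SPI1, a wall protein gene of stationary phase, had 174 and 177 CPM in replicate 3, against 42.7 and 34.4 in replicate 1 and 64.1 and 60.2 in replicate 2 (log2 difference 1.84 ± 0.062 (SE), adjusted p = 1.6e-08). Of 34 cyclins and G1/S genes, 16 were higher in replicate 3 (median 0.14; 5 without LF 3 and 8 without control 3) and 14 lower in replicate 1 (median -0.11). CLB1, a B-type cyclin of mitosis, had 149 and 156 CPM in replicate 1, against 270 and 297 in replicate 2 and 257 and 257 in replicate 3 (log2 difference -0.82), lowest in replicate 1. Of 10 histone genes, 3 were higher in replicate 1, 2 lower in replicate 2, and 1 higher and 2 lower in replicate 3. Of 19 osmotic stress and glycerol genes, 12 were higher in replicate 3 (median 0.23), 10 were lower in replicate 1 (median -0.15) and 10 in replicate 2 (median -0.20; 6 without LF 2 and 6 without control 3), with RTN2, a reticulon gene, at 211 and 202 CPM in replicate 3, against 35.2 and 33.4 in replicate 1 and 45.5 and 48.3 in replicate 2 (log2 difference 2.36).

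Mating type a genes were high in replicate 2, with 6 of 6 higher there (median 0.27; 2 without LF 2 and 2 without LF 3) and 5 lower in replicate 1 (median -0.28; 3 without LF 3). MFA1, an a-factor pheromone gene, had 417 and 416 CPM in replicate 2, against 293 and 299 in replicate 1 and 270 and 245 in replicate 3 (log2 difference 0.59), and STE2, the alpha-factor receptor, had 995 and 893 CPM in replicate 2, against 688 and 663 in replicate 1 and 843 and 834 in replicate 3 (log2 difference 0.33). Of the 3 alpha markers tested, 1, STE3, was lower in replicate 3, near the level at which genes were tested. Of 27 pheromone response genes, 10 were higher and 2 lower in replicate 2 (median 0.13; 4 without LF 2 and 5 without LF 3), 2 higher and 8 lower (5 without LF 3) in replicate 1, and 4 higher and 8 lower (5 without LF 2, 2 without LF 3 and 3 without control 3) in replicate 3.

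The replicate days were then set beside a second pair of untreated cultures. The HiSeq control for AMB-LF was compared with the control for AMB, 3 libraries each, in a fit of 12 libraries with the lane as a covariate, which called 1734 of 5456 genes (31.8%), 828 higher and 906 lower. These libraries share none with the NextSeq set. The labels give 50 min of growth for the control for AMB-LF and 60 min for the control for AMB, as do the methods and a design table of the study. The growth protocol of the labels and a figure of the study give these groups the other way round, so the sign of this comparison may be turned. All 3 libraries of the control for AMB-LF were read in lane 1, as was replicate 1 of the control for AMB, with its replicates 2 and 3 in lane 2. Without that replicate 1 the calls were 173 higher and 404 lower. Without replicate 1 of AMB-LF or of its control, 439 or 479 were higher. Of the calls 47.8% were in the higher direction with TMM factors and 67.2% with library size only, which moved the median of all genes to 0.14, against 0.034 with TMM factors.

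Genes called between replicate days were called in 44.0% of cases here (1460 of 3317), and genes not called between days in 12.6%. Expression level, which bears on the power of both tests, was not matched between these sets. The genes with a day range over 1 were called in 62.3%. With the labels as given, the direction followed the class for replicate 3. Of 1068 replicate 3 high genes in both sets, 448 were higher and 4 lower among the control for AMB-LF cultures (median log2 difference 0.24), and of 1179 replicate 3 low genes 10 were higher and 707 lower (median -0.43). Replicate 1 high genes had a median of 0.0062 (46 higher, 37 lower of 350) and replicate 1 low genes 0.11 (58 higher, 14 lower of 276). Replicate 2 high genes had a median of -0.15 (10 higher, 53 lower) and replicate 2 low genes 0.16 (72 higher, 1 lower). Some whole lists ran the same way: ribosome biogenesis had 0 higher and 63 lower of 63 (median -1.20), ribosomal proteins 0 and 130 (median -0.88), and trehalose and glycogen 17 higher and 0 lower (median 0.55). Others did not. Nitrogen genes had 2 higher and 9 lower (median -0.26), against 18 higher in replicate 3, and sulfate and methionine genes 10 higher and 1 lower (median 0.21), against 15 lower in replicate 3. Proteasome genes had 15 higher and 0 lower of 33, against 12 lower in replicate 3, where 30.1% of all genes tested were lower. Those 12 fell to 1 without LF 3, 2 without control 3 and 5 with library size only. Respiratory chain and ATP synthase genes had 2 higher and 2 lower, and cell wall genes 2 higher and 4 lower, against 28 and 18 higher in replicate 3.

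Properties of the sequence followed the day differences weakly. Across 5371 genes, Spearman's rho between the log2 difference and the GC content of the coding sequence was -0.097 for replicate 1, -0.16 for replicate 2 and 0.17 for replicate 3, and between the log2 difference and coding length it was -0.074, 0.083 and -0.0092. These are correlations across genes of the same 6 libraries. Among the 16 chromosomes, the median difference lay between -0.0325 and 0.0341 for replicate 1, -0.0561 and 0.0167 for replicate 2, and -0.032 and 0.0693 for replicate 3.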

How the data were processed

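RNA-seq counts of 18 S. cerevisiae libraries were used, of which the 6 NextSeq libraries are described and 6 untreated HiSeq libraries are compared with them. Reads were aligned by the authors with TopHat and Bowtie against R64 and counted on coding sequences with HTSeq (0.5.3p9 in the submitters' processing notes, while the study's methods name later versions of these tools for the LF libraries and their controls) on either strand, ambiguous overlaps left out, and the authors deposited raw counts per gene. Overlapping genes and near-identical copies are uncertain for that reason. The deposited table of group averages (log2 CPM) and that of the authors' own comparisons (log2 fold changes, likelihood ratio values, p-values and false discovery rates) were not used. Of 6692 identifiers, 6008 matched the R64 annotation by systematic name.

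NextSeq totals were 23925944 to 30172836 counts per library and HiSeq totals 6799569 to 9696467. The quasi-likelihood test of edgeR 4.0.16 (R 4.3.3) was used, with TMM factors (0.9696 to 1.031 in the NextSeq libraries), the treatment and the replicate number as terms, and Benjamini-Hochberg adjustment over 5445 genes that reached 7 CPM or more in 3 or more libraries. HiSeq genes needed 7 CPM in 6 libraries. Calls were made at an adjusted p under 0.05. SE is the absolute log2 difference divided by the square root of F. LF was tested against its control without and with the replicate block. The fit of the replicate days was tested on simulated data with few changed genes, on the day of replicate 3 only and in equal numbers up and down. Far more genes were called in the real data, so that test does not cover the scaling here.

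The study gives the NextSeq replicates as biological replicates from different days. Same-numbered LF and control libraries deviated together from their group means across genes (r = 0.881, 0.767 and 0.943 in replicates 1, 2 and 3), so the numbers pair the libraries. The common biological coefficient of variation was 0.0558 with the day in the model and 0.1788 without it.

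A called gene was placed with the day whose mean log2 CPM lay farther from the middle day than the other extreme. The 4 genes with the largest difference in each of the 6 classes were named, among genes with a symbol that were called in that contrast and whose day did not overlap the other libraries. A few genes that met these rules are not reported here. From each list, 2 to 4 called genes with the largest day range were named, and regulators whether called or not. RPL15B, BAT2, SSB1 and SSB2, list exceptions, and the genes named for LF within days, were chosen after their values were seen. The genes, lists and tests were chosen with earlier results of these data known.

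Alternatives were the likelihood ratio test, DESeq2 1.42.0, RLE factors, library size only, no filter, filterByExpr, no treatment term, correction for GC content and coding length, and each library left out in turn.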

Additional observations from a re-analysis of the deposited data

How the results depend on the processing

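The overall count of 3353 genes called between days was 2687 with DESeq2 (2671 of them shared), 3445 with the likelihood ratio test and 3407 with correction for GC content and coding length in the fit with the replicate block. Leaving out 1 library gave 2012 to 3648 calls. Over the same fits replicate 1 had 573 to 1162 genes higher and 711 to 1167 lower, replicate 2 had 429 to 1220 higher and 422 to 1113 lower, and replicate 3 had 857 to 1692 higher and 905 to 1644 lower. With library size only, replicate 1 had 822 genes higher, against 1257 with TMM factors. LF had 0 calls in all 14 fits. Under the replicate block 418 genes had an unadjusted p under 0.05, against 1 to 28 in the other fits, which leave the day out of the model. Between the HiSeq controls, the calls higher for AMB-LF were 828, against 413 with the replicate block (677 lower) and 1499 with library size only, and 173 to 838 higher and 404 to 947 lower with 1 library left out. These HiSeq libraries share only a number (r = -0.286, -0.297 and -0.0236). The block turned their split to 37.9% higher. The cause of these shifts was not tested beyond the fewer libraries in the fits that leave one out. For the 24 leading genes of the classes, 335 alternative values kept their direction and call and 1, of ARN2, did not. With library size only, size factors or 1 library left out, list medians changed sign only where they were at most 0.10 in size. Each day rests on 2 libraries, and genes under 7 CPM were not tested.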

Other observations

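Some groups had smaller or mixed day differences. Genes of sterol biosynthesis, the pathway that azoles block, were called between days for 9 of 26, 34.6%, against 61.6% of all genes tested. In replicate 3, 2 of 26 were higher and 12 lower (7 without LF 2, 1 without LF 3 and 4 without control 3; median -0.12). With library size only, 6 were higher and 4 lower there (median -0.052). ERG11, the lanosterol demethylase, had 549 and 610 CPM in replicate 3, against 776 and 814 in replicate 1 and 752 and 700 in replicate 2. Unfolded protein response genes were higher in replicate 3 for 11 of 22 (6 without LF 3 and 4 without control 3; median 0.17), and KAR2, the Hsp70 of the endoplasmic reticulum, had 434 and 562 CPM in replicate 2, against 724 and 656 in replicate 1 and 699 and 832 in replicate 3. Gluconeogenesis and glyoxylate cycle genes were higher in replicate 3 for 11 of 19 (5 without control 3; median 0.22), with PCK1, its key carboxykinase, at 22.2 and 20.8 CPM in replicate 3, against 8.76 and 8.53 in replicate 1 and 18.2 and 16.5 in replicate 2.

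Of 16 hypoxic and cell wall mannoprotein genes, 7 were higher (3 without LF 3 and 4 without control 3) and 6 lower in replicate 3. Of 15 copper genes, 7 were lower in replicate 1 (4 without LF 3) and 6 higher in replicate 3. Of 11 biotin and pyridoxine genes, 5 were higher in replicate 2 (3 without LF 2 and 3 without LF 3) and 7 lower in replicate 3 (2 without LF 3, 3 without control 3 and 3 with library size only), with BIO2, biotin synthase, at 33.7 and 43.8 CPM in replicate 1, against 20.5 and 18.9 in replicate 2 and 16.9 and 19.3 in replicate 3. Of 12 meiosis and sporulation genes, 3 were lower in replicate 1 and 3 higher in replicate 3, and of 24 ion transport genes, 6 were higher (3 without LF 3 and 1 without control 3) and 6 lower (3 without LF 3 or control 3) in replicate 3.

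Within days, ADH4, a zinc-regulated alcohol dehydrogenase gene, had the smallest unadjusted p for LF under the replicate block among the zinc genes described (5.7e-05, adjusted p = 0.31 by edgeR), with LF minus control at -0.267, -0.483 and -0.727 on the log2 scale in replicates 1, 2 and 3.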
